A study of Mus musculus with 15 samples.

Results

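The genes described here are 9 complement components and regulators, C3, C4B, C2, CFB, C1RA, SERPING1, CD55, CD59A and CLU, read in tumors of the Tsc2-deficient renal tumor line 105K. They were chosen by name, with earlier results of these data known, and all 9 are among the 24891 genes kept from the deposited expression table. The data are 15 RNA sequencing libraries in 5 groups of 3. The tumors grew under the skin of wild-type C57BL/6J mice, which the methods give as 6-week-old males, and every tumor carried either a non-targeting shRNA (sh-NC) or 1 of 2 shRNAs against Cd276, the gene for the immune checkpoint protein B7-H3. Whole tumors were read for the control and for the first hairpin, labelled sh-B7-H3 (1). Tumor cells enriched by removing other cells on magnetic beads were read for the control and for both hairpins, the second labelled sh-B7-H3 (2). The shRNA lines were heterogeneous pools under puromycin selection, and whether the 3 libraries of a group came from separate mice is not given in the sources used here, so each p-value measures only the spread between these libraries.

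Complement is a cascade of blood and tissue proteins that mark, lyse and clear cells. The classical route starts with C1q and the proteases C1r and C1s, which cut C4 and C2 into a C3 convertase, and the alternative route builds its own convertase from C3 and factor B. Host cells hold the cascade in check with soluble inhibitors such as the C1 inhibitor, encoded by Serping1, and clusterin, and with surface proteins such as CD55 and CD59. The liver makes most of the plasma proteins, but epithelial cells, fibroblasts and macrophages make several of them locally, and interferons and inflammatory cytokines are known inducers of C3, Cfb, C2, C4 and Serping1.

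The target of the shRNAs was not lower under every label. In sorted cells CD276 was at 34.0, 20.0 and 17.3 scaled FPKM (fragments normalized to transcript length and library depth, divided by a library factor) with sh-NC, and at 7.29, 14.0 and 11.5 in the libraries labelled sh-B7-H3 (1), which lay below all 3 controls without passing the test (log2 fold change -1.04, limma, adjusted p = 0.0547). The libraries labelled sh-B7-H3 (2) held 23.3, 25.4 and 25.7 (0.12, adjusted p = 0.775), and the bulk tumors labelled sh-B7-H3 (1) held 22.3, 17.8 and 24.4 against 20.8, 23.2 and 23.5 in bulk sh-NC (-0.07, adjusted p = 0.709). For the latter 2 groups the target mRNA was not lower than in the control of the same material, so knockdown is not seen in these values. Bulk tumors also hold host cells that did not carry the shRNA, and their part in the bulk CD276 value was not tested. Directions drawn from these groups are directions of the label, and each group is named as labelled.

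Replicate 1 of the sorted libraries labelled sh-B7-H3 (2) stood apart from replicates 2 and 3. Its leukocyte markers summed to 188 scaled FPKM over 6 genes, against 3.09 to 7.93 in the other 8 sorted libraries and 152 to 327 in the bulk tumors, and its C1QA was 108 against 0.863 to 2.85. C3 was at 258 in it against 538 and 539 in its group mates, and SERPING1 at 45.1 against 88.1 and 87.3. MASP1, a lectin pathway protease, was at 0.894 in it, within the 0.685 to 0.909 of the sorted libraries labelled sh-B7-H3 (1), where its group mates held 7.40 and 7.53. Results that rest on it are given with and without it. Replicates 2 and 3 of that group were the closest pair of all 15 libraries, with a median difference of 0.0864 on the log2 scale. They differed 2.57 times more than counting error alone would give, the lowest such ratio of any same-group pair (3.31 to 11.6 in the others). Whether they are independent samples is not settled by this. They were kept as separate samples. The lowest FPKM values imply 16000000 to 34700000 fragments a library. Hepatocyte-type plasma protein genes, 5 in the list, summed to at most 0.0844 scaled FPKM in any library, and the epithelial marker KRT8 stood at 276 to 457 in the sorted libraries.

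On GRCm38 (mm10, GENCODE vM21), 4 of the 9 genes lie on chromosome 17. C4b spans chr17:34728380-34743882, Cfb chr17:34856374-34862518 and C2 chr17:34862604-34898265, all on the minus strand within the class III region of the major histocompatibility complex, and C3 lies farther along at chr17:57203970-57228136. In the direction of transcription the annotated C2 ends 85 bases before Cfb starts, and a readthrough gene, Gm20547 (chr17:34856412-34882042), overlaps both. How the authors' counting divided fragments there is not given in the sources used here. Serping1 (chr2:84765387-84775444) and Cd59a (chr2:104095801-104115354) share chromosome 2, C1ra (chr6:124512405-124523443) sits beside C1s1 and C1rb, and Cd55 (chr1:130439027-130462744) and Clu (chr14:65968483-65981547) stand alone.

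Promoter sequence was read for 4 of the 9 members in the RefSeq table of GRCm38.p6. Shown here are the 250 bases before the start of C3, the central component, and of Cd59a, the member that did not rise in any comparison, so that the pair can be set side by side. The C3 stretch is chr17:57228137-57228386 on the minus strand and the Cd59a stretch is chr2:104095551-104095800 on the plus strand, and capitals mark any match to the letters searched.
C3: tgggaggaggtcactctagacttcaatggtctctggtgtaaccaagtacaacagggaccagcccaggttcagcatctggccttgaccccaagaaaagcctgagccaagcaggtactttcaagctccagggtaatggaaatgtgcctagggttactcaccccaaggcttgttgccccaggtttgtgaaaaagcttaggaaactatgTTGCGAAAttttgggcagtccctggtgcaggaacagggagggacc
Cd59a: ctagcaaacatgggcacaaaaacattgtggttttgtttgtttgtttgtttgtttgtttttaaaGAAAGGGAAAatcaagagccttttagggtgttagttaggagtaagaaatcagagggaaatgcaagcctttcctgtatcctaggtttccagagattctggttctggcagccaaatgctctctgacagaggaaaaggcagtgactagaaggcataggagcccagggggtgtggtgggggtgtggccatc
The search covered both strands for a C/EBP motif (TTGCNNAA), a gamma-activated site (TTCNNNGAA), an interferon-stimulated response element (GAAA repeated after any 2 bases) and an NF-kB motif (GGGA and TTCC with any 2 bases between). The C3 window held 1 C/EBP match, first base 45 before the start, and the Cd59a window held 1 match to the interferon element, first base 187 before the start, while the windows of C1ra and Cd55 held none of the letters. Of the 32851 promoter windows in the table, 9.56% held the C/EBP letters, 7.02% the gamma-activated site, 2.98% the interferon element and 1.21% the NF-kB letters. A match is a stretch of letters only, and binding was not measured here.

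The members differed in level by several orders of magnitude, and since FPKM is per length these levels can be compared between genes. CLU, the secreted chaperone that inhibits membrane attack, had a mean of 2084 ± 227 (scaled FPKM with its SD, n = 3) in the sorted control and ranked 11th among all genes. C3, the central component, averaged 172 ± 66.9 and ranked 400th. CD59A (17.6 ± 5.71), SERPING1 (12.3 ± 4.15), C1RA (7.95 ± 1.74), CFB (5.83 ± 0.921) and C4B (3.18 ± 1.44) formed a middle band, and C2 (0.377 ± 0.0744) and CD55 (0.482 ± 0.149) stood below 1. In that order from CD59A down to CFB each gene overlapped its neighbour within 1 SD, C4B lay under CFB by more than the SDs, and C2 and CD55 overlapped.

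**Figure D1:**
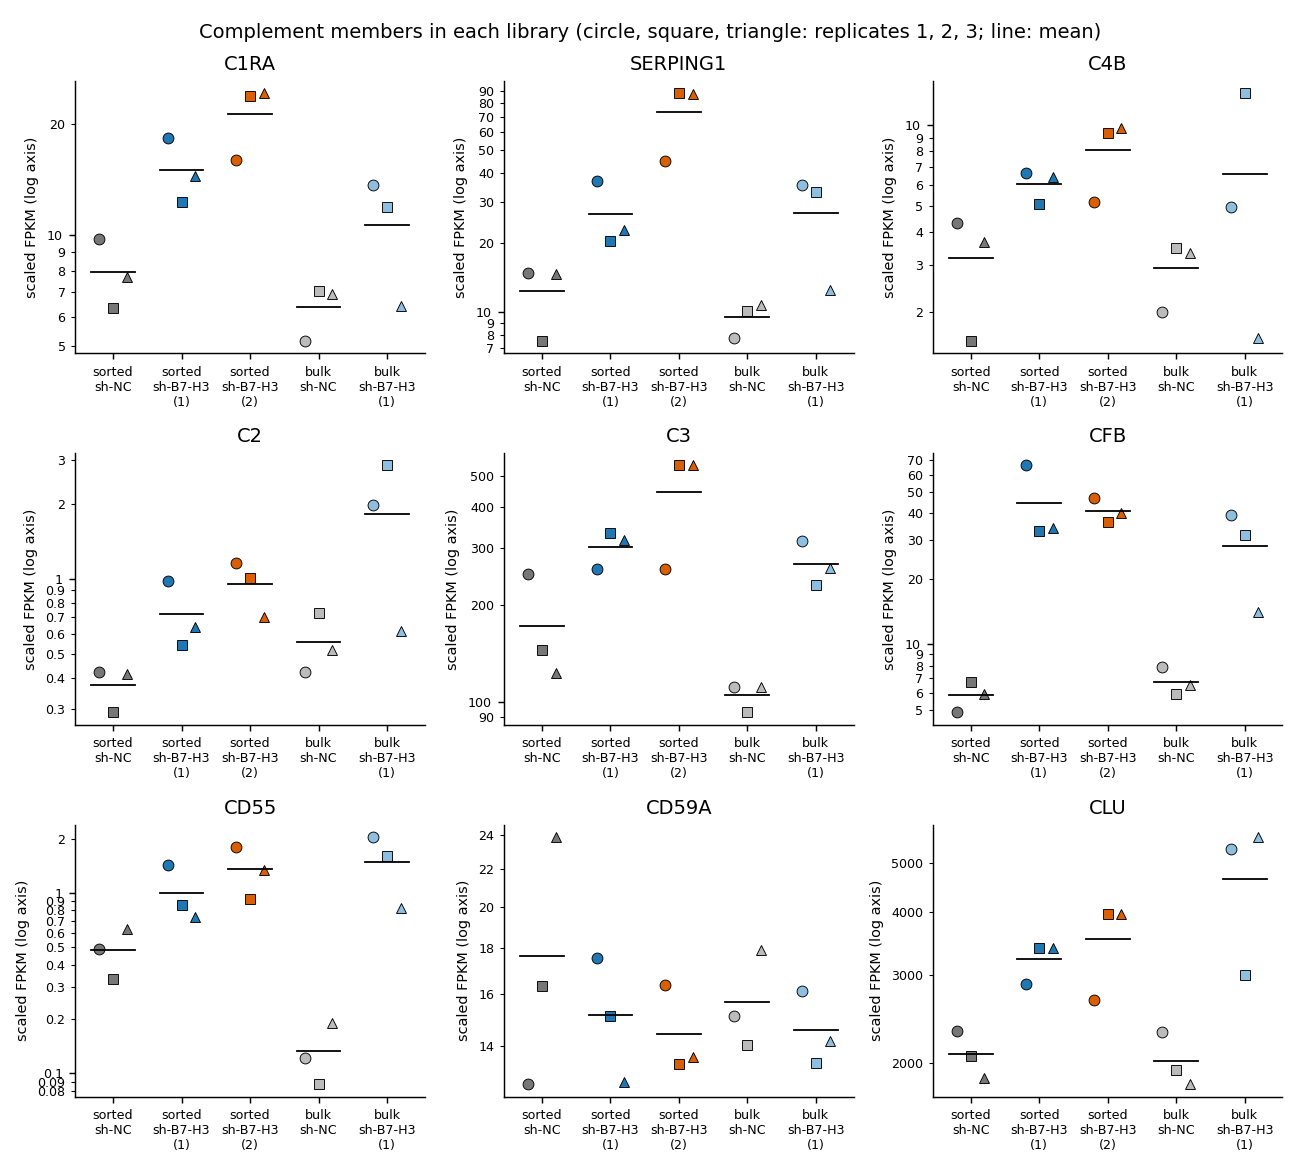
Scaled FPKM of each of the 9 members (log axis) in the 15 libraries, by group, with circle, square and triangle for replicates 1, 2 and 3 and a line at the group mean. CFB in the 6 sorted libraries labelled sh-B7-H3 sits between 33.3 and 66.3, above the 4.88 to 6.71 of sorted sh-NC, while CD59A overlaps in all groups.

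CFB, the serine protease of the alternative convertase, separated the groups most clearly. In sorted sh-NC cells its scaled FPKM was 4.88, 6.71 and 5.92. The libraries labelled sh-B7-H3 (1) held 66.3, 33.3 and 34.2, and those labelled sh-B7-H3 (2) held 46.8, 36.2 and 40.0. Every one of the 6 lay above every control, and the 2 shRNA groups overlapped each other. The log2 fold change was 2.67 (SE 0.26) for sh-B7-H3 (1), adjusted p = 0.000367, and 2.62 (SE 0.15) for sh-B7-H3 (2), adjusted p = 5.62e-05. These are 6.37-fold and 6.15-fold in scaled FPKM + 1, the scale of the test. The plain group means were 44.6 and 41.0 against 5.83 in sh-NC. With both as 1 group of 6 the log2 fold change was 2.65 (SE 0.20, adjusted p = 8.62e-06). CFB stayed called under each of the alternatives run for these 3 comparisons.

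C3, the substrate of both convertases, was at 248, 145 and 123 scaled FPKM in sorted sh-NC. The libraries labelled sh-B7-H3 (1) held 258, 332 and 316, and those labelled sh-B7-H3 (2) held 258, 538 and 539. The controls lay below all 6, with sh-NC replicate 1 close under the lowest of the treated libraries. The log2 fold change was 0.87 (SE 0.27, adjusted p = 0.0745) for sh-B7-H3 (1), not called, 1.35 (SE 0.36, adjusted p = 0.0363) for sh-B7-H3 (2), and 1.11 (SE 0.30, adjusted p = 0.0249) for both. Without sh-NC replicate 1 the first became 1.16 (adjusted p = 0.00211), and without sh-NC replicate 2 or 3 the value for both was not called (1.02, adjusted p = 0.106, and 0.90, adjusted p = 0.0954). The sh-B7-H3 (2) value was likewise not called without sh-NC replicate 2 or 3 (adjusted p = 0.134 and 0.0896) or without replicate 2 or 3 of its own group (0.125 and 0.144). With replicates 2 and 3 of its own group averaged it was 1.18 (limma, adjusted p = 0.137).

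C4B, whose product pairs with C2 in the classical convertase, was at 4.31, 1.56 and 3.66 in sorted sh-NC, at 6.65, 5.09 and 6.40 with sh-B7-H3 (1) and at 5.17, 9.40 and 9.79 with sh-B7-H3 (2). None of the treated libraries overlapped the controls, and the change was 0.81 (adjusted p = 0.0912), 1.15 (adjusted p = 0.0419) and 0.98 for both (SE 0.26, adjusted p = 0.0214). Without sh-NC replicate 1 the first was called (1.02, adjusted p = 0.0264). The second was not called without sh-NC replicate 2 or 3 (adjusted p = 0.114 and 0.0554) or its own replicate 2 or 3 (0.133 and 0.158), nor the third without sh-NC replicate 2 (0.66, adjusted p = 0.105). With replicates 2 and 3 of sh-B7-H3 (2) averaged the second was 1.02 (limma, adjusted p = 0.148). C4A, a near-identical neighbour, made up 10.2% to 15.3% of the pair in every library, and the counting may split fragments between them, so the C4B value is uncertain to that extent. C2 was below the filter of 1 scaled FPKM in 3 libraries in every comparison and was not tested. Its values were 0.423, 0.291 and 0.415 with sh-NC, 0.979, 0.544 and 0.643 with sh-B7-H3 (1), and 1.16, 1.01 and 0.700 with sh-B7-H3 (2), with no overlap between controls and treated. CFB exceeded C2 by 11.5 to 23.1 times in sorted sh-NC, by 53.2 to 67.7 times with sh-B7-H3 (1) and by 36.0 to 57.1 times with sh-B7-H3 (2).

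C1RA, the C1r protease that follows C1q, was at 9.79, 6.33 and 7.71 in sorted sh-NC. It stood at 18.4, 12.3 and 14.5 with sh-B7-H3 (1) and at 16.0, 23.9 and 24.3 with sh-B7-H3 (2). The groups labelled sh-B7-H3 lay wholly above the controls, with log2 fold changes of 0.85 (SE 0.19, adjusted p = 0.0243), 1.32 (SE 0.21, adjusted p = 0.0037) and 1.08 for both (SE 0.21, adjusted p = 0.00492). The first was lost without sh-NC replicate 2 (adjusted p = 0.0983) and without replicate 1 or 3 of its own group (adjusted p = 0.107 and 0.0905). C1RB, the paralog, made up 19.8% to 26.1% of the pair in the 15 libraries, with the same caution as for C4A.

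SERPING1, which inactivates C1r and C1s, was at 14.9, 7.55 and 14.6 in sorted sh-NC, at 36.8, 20.3 and 22.6 with sh-B7-H3 (1) and at 45.1, 88.1 and 87.3 with sh-B7-H3 (2). All 6 lay above the controls, and all of sh-B7-H3 (2) above all of sh-B7-H3 (1). The change was 1.06 (SE 0.30, adjusted p = 0.0546) for sh-B7-H3 (1), 2.47 (SE 0.33, adjusted p = 0.00157) for sh-B7-H3 (2), and 1.77 (SE 0.47, adjusted p = 0.0226) for both. The first was called without sh-NC replicate 1 or 3 (adjusted p = 0.0336 and 0.0406), and the value for both was not called without sh-NC replicate 2 (1.47, adjusted p = 0.116).

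CLU was at 2319, 2068 and 1866 in sorted sh-NC, at 2878, 3398 and 3386 with sh-B7-H3 (1) and at 2673, 3969 and 3968 with sh-B7-H3 (2). The controls lay below all treated libraries, but each shRNA alone missed the threshold (0.63, adjusted p = 0.143, and 0.74, adjusted p = 0.114), while the 2 together passed it (0.69, SE 0.19, adjusted p = 0.026). Without sh-NC replicate 1 each shRNA alone passed (adjusted p = 0.0241 and 0.0381). The joint call fell away without sh-NC replicate 2 or 3 (adjusted p = 0.0837 and 0.0789), without sh-B7-H3 (1) replicate 3 (0.0537), and without sh-B7-H3 (2) replicate 2 or 3 (0.0572 and 0.0571).

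Of the 2 membrane regulators, CD55, which speeds the decay of the convertases, was at 0.487, 0.331 and 0.629 in sorted sh-NC, at 1.42, 0.855 and 0.732 with sh-B7-H3 (1) and at 1.80, 0.925 and 1.35 with sh-B7-H3 (2). The 6 treated values lay above the 3 controls. Against sorted sh-NC it passed the filter only when both shRNAs were pooled, and only through the 3 treated libraries at 1.35 or more, so its fitted change of 0.54 is given as a description and its call is not used. Without replicate 1 of either shRNA group, or replicate 3 of sh-B7-H3 (2), it did not enter the test. CD59A, which blocks the membrane attack pore, was at 12.7, 16.3 and 23.9 with sh-NC, at 17.5, 15.1 and 12.8 with sh-B7-H3 (1) and at 16.3, 13.4 and 13.6 with sh-B7-H3 (2). All groups overlapped, and the change for both was -0.20 (95% confidence interval -0.59 to 0.18, adjusted p = 0.465). The most abundant membrane regulator of the wider list, CR1L (the mouse inhibitor Crry), was at 43.5 to 84.3 in sorted sh-NC and 58.6 to 100 in the treated libraries (0.19, adjusted p = 0.585).

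In counts, 2 of the 7 members tested were higher with sh-B7-H3 (1), where 9.03% of the 11163 genes tested were higher, 5 of 7 with sh-B7-H3 (2), where 11.7% of 11243 were, and 6 of 7 with both, leaving out CD55, where 12.6% of 11424 were. The 3 comparisons share the sorted sh-NC libraries. The members were chosen with earlier results of these data known, so the counts and medians are descriptions. No member was lower in any of them. The members' median log2 fold change was 0.85, 1.32 and 1.08 (again without CD55), beside 0.00153, 0.00971 and 0.00698 over all genes tested. In 6 of these 7 members all 6 treated sorted libraries lay above all 3 sh-NC libraries, a pattern that 13.6% of the genes tested showed. The values of C2 and CD55, which are outside that base, were ordered the same way.

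Markers of other cells moved with these groups in part. Fibroblast markers summed to 36.1 to 81.7 scaled FPKM in sorted sh-NC, 56.2 to 84.8 with sh-B7-H3 (1) and 121 to 156 with sh-B7-H3 (2), with 0 of 6, and 4 of 7, of the tested markers higher. Macrophage markers summed to 36.2 to 50.1, 71.3 to 98.1 and 62.9 to 782, the last in replicate 1, with 2 of 6 higher in each. The list did not move as a whole. CD68 was at 25.0 to 33.3, 55.7 to 83.1 and 50.9 to 70.4. LYZ2, outside that replicate, was at 2.11 to 6.00, 3.40 to 3.81 and 1.35 to 1.37. T cell markers summed to at most 0.499 in the 8 sorted libraries other than that replicate. CD3E was at 0 in all 3 sorted sh-NC libraries. Epithelial and kidney markers were also higher in sum, though not each of them. All 8 together summed to 905 to 1100 in sorted sh-NC and to 1520 to 1882 in the 6 treated libraries. Of these, 3 of 8 were higher for sh-B7-H3 (1), 4 of 8 for sh-B7-H3 (2) and 3 of 8 for both. EPCAM was at 17.2 to 27.4 and 126 to 221, and KRT19 at 139 to 203 and 446 to 552. CDH1, in contrast, was at 210 to 357 and 166 to 229, and PAX8 at 20.7 to 34.7 and 18.3 to 23.0. The part of these markers in the members' values was not tested.

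With a fibroblast marker score in the model only CFB stayed called in each of the 3 comparisons (2.70 to 2.77). Calls over all genes, in either direction, were then 9.73% for sh-B7-H3 (1), 1.23% for sh-B7-H3 (2) and 12.5% for both, against 13.4%, 19.1% and 20.5% without the score. The fibroblast sums of sh-B7-H3 (2) did not overlap those of sorted sh-NC, so that fit cannot well separate the score from the label. For sh-B7-H3 (2) the uncalled members kept their direction, with C3 at 1.63 (adjusted p = 0.729), SERPING1 at 1.95 (adjusted p = 0.458), C1RA at 1.16 (adjusted p = 0.555) and C4B at 0.45 (adjusted p = 1). Without the leukocyte-rich replicate 1 of sh-B7-H3 (2) the counts were 5 of 7 for that shRNA, where 12.4% of genes were called in either direction, and 6 of 7 for both, where 17.1% were. Those fits keep for sh-B7-H3 (2) only replicates 2 and 3, the closest pair of libraries.

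**Figure D2:**
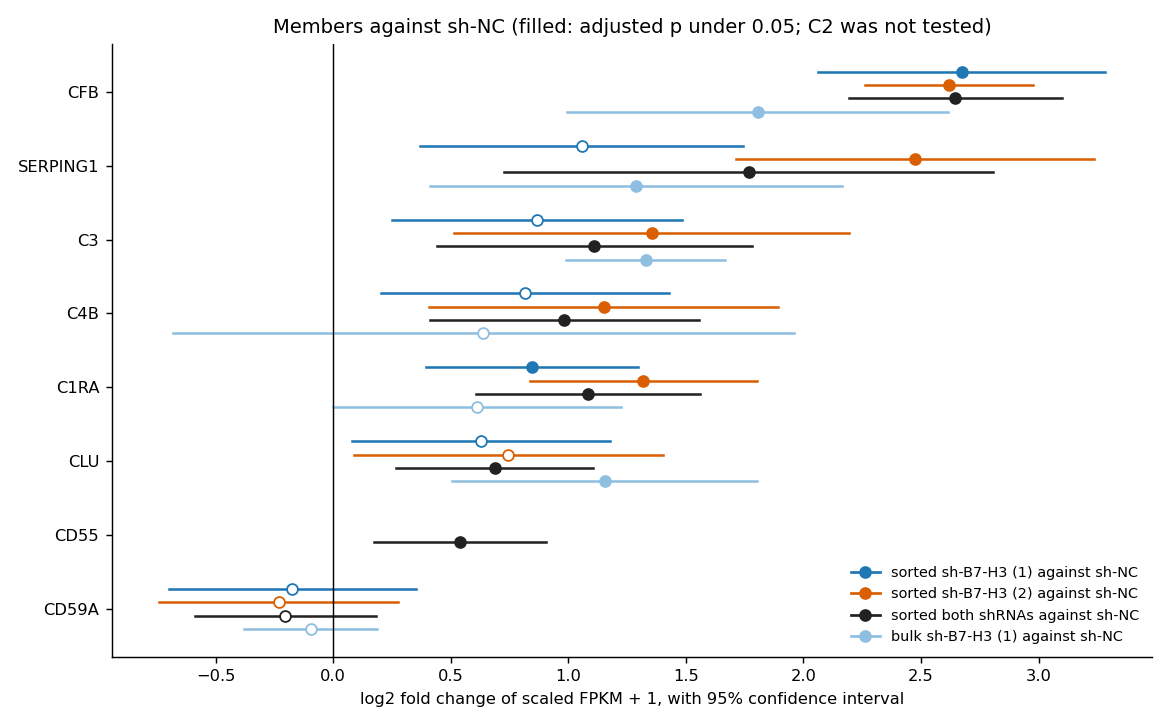
Log2 fold change of scaled FPKM + 1 against sh-NC (points) with 95% confidence intervals (lines) for the tested members in 4 comparisons, filled where the adjusted p is under 0.05. CFB is filled in all 4, at 1.81 to 2.67, CD59A lies across 0 in all 4, and CD55 entered the joint comparison only through treated libraries.

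The sorted libraries of the 2 shRNAs were also compared with each other. No member of the 8 tested was called by limma (2 at an unadjusted p under 0.05), where 3.4% of 11239 genes were (1864 genes in place of 382 with the replicate number as a block, again with no member). The nearest was SERPING1, at -1.42 for sh-B7-H3 (1) minus sh-B7-H3 (2) (95% confidence interval -2.12 to -0.72, adjusted p = 0.0507). CFB differed by 0.05 (-0.54 to 0.64, adjusted p = 0.927), CLU by -0.12 (-0.56 to 0.33) and CD59A by 0.06 (-0.25 to 0.37). This result rests on replicate 1 of sh-B7-H3 (2). Without it, 4 of 7 members were lower with sh-B7-H3 (1), where 8.02% of 11092 genes were called in either direction, namely SERPING1 (-1.73, adjusted p = 0.0044), C3 (-0.84, adjusted p = 0.0125), C1RA (-0.66, adjusted p = 0.042) and C4B (-0.60, adjusted p = 0.0294), and CFB was at 0.15 (adjusted p = 0.748). That fit keeps only replicates 2 and 3 of sh-B7-H3 (2), the closest pair of libraries in the series (median log2 difference 0.0864). Its spread within that group is therefore small. C3 and SERPING1 were also among the values by which replicate 1 was seen to stand apart, so these calls are descriptions. With all libraries, every SERPING1 value with sh-B7-H3 (2) lay above every value with sh-B7-H3 (1), while the CFB values overlapped. Fibroblast markers also differed between these groups, with 3 of 7 tested lower with sh-B7-H3 (1), and with their score in the model no member, and no gene of the 11239 tested, was called at adjusted p under 0.05 in limma. Their sums did not overlap (56.2 to 84.8 and 121 to 156), so this fit cannot well separate the score from the label.

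**Figure D3:**
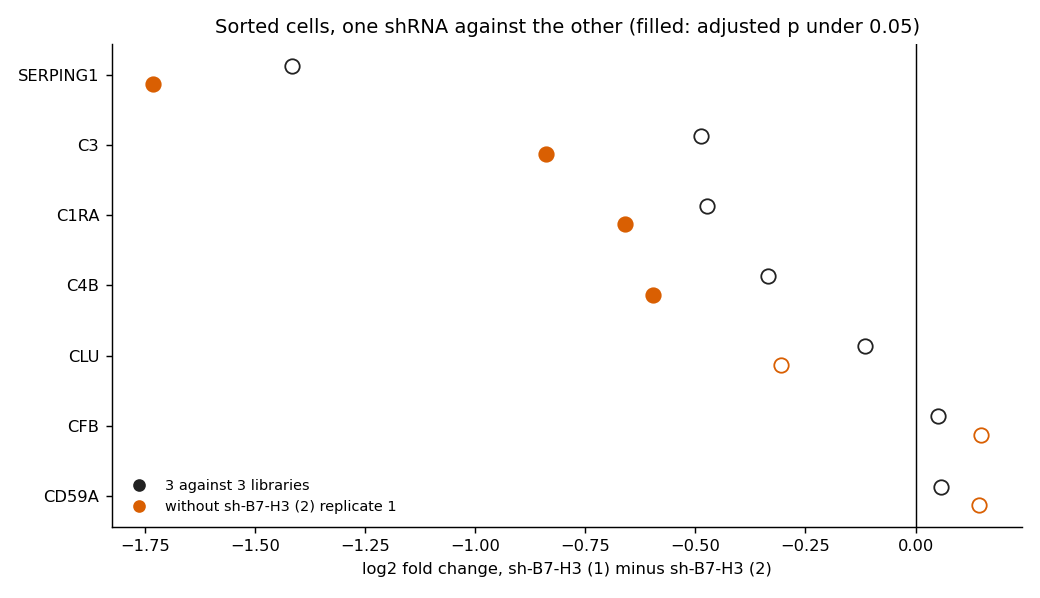
Log2 fold change of sh-B7-H3 (1) minus sh-B7-H3 (2) in sorted cells for 7 members, with all 3 libraries of each group and without replicate 1 of sh-B7-H3 (2), filled where the adjusted p is under 0.05. SERPING1, C3, C1RA and C4B are filled only without that library. Replicates 2 and 3, then left for sh-B7-H3 (2), are the closest pair of libraries in the series.

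In bulk tumors, 4 of 7 members tested were higher with the label sh-B7-H3 (1), where 12.8% of 11800 genes were. In bulk tissue fewer cells of a type and less RNA per cell cannot be told apart. C3 was at 112, 93.1 and 111 scaled FPKM in sh-NC tumors and at 314, 229 and 259 in the other group (log2 fold change 1.33, SE 0.14, adjusted p = 0.00308), with no overlap. CFB went from 7.84, 5.92 and 6.50 to 39.0, 31.6 and 14.0 (1.81, SE 0.34, adjusted p = 0.0152). CLU, already at 2311, 1938 and 1815, was at 5333, 2991 and 5642 (1.16, SE 0.27, adjusted p = 0.0296), and its group mean ranked 3rd among all genes. SERPING1 went from 7.72, 10.2 and 10.7 to 35.3, 33.0 and 12.5 (1.29, SE 0.37, adjusted p = 0.049). Replicate 3 of the treated tumors was the lowest of its group for CFB, SERPING1, C1RA, C4B, C2 and CD55, but not for CLU, where it was the highest, or C3.

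The other members of the bulk tumors were less even. C1RA went from 5.17, 7.07 and 6.93 to 13.7, 11.9 and 6.44 (0.61, adjusted p = 0.126), and C4B from 2.00, 3.47 and 3.33 to 4.93, 13.2 and 1.60 (0.64, adjusted p = 0.426), both overlapping. CD55, untested, went from 0.122, 0.0870 and 0.190 to 2.04, 1.60 and 0.825 with no overlap, and C2, also untested, from 0.421, 0.731 and 0.517 to 1.98, 2.86 and 0.617 with overlap. CD59A was at 14.0 to 17.9 in sh-NC and 13.4 to 16.1 in the other group (-0.10, 95% confidence interval -0.38 to 0.19). In 4 of the 7 members tested every treated tumor lay above every control, a pattern that 24.4% of the genes tested showed.

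Fibroblast markers, 5 of 7 tested higher, summed to 94.3 to 178 in bulk sh-NC and 285 to 666 in bulk sh-B7-H3 (1), with COL1A1 at 31.0 to 64.2 and 113 to 271, and T cell markers to 1.30 to 2.40 and 5.54 to 17.4. Epithelial and kidney markers, 3 of 8 higher, summed to 799 to 907 and 1061 to 1411. With the fibroblast score in the model none of the 7 was called at adjusted p under 0.05 in limma, nor was any of the 11800 genes tested. C3 was then at 1.33 (adjusted p = 0.0839) and SERPING1 at -0.40 (adjusted p = 0.331). The fibroblast sums did not overlap between the labels, so this fit cannot well separate the score from the label, and nothing is drawn from it. C3 stayed called without each library in turn, at 1.21 to 1.43. CFB did not stay called without treated replicate 1 (adjusted p = 0.0564) or without sh-NC replicate 2 or 3 (0.0555 and 0.0649), and CLU and SERPING1 were lost in turn, with CLU kept only without treated replicate 2 and SERPING1 only without treated replicate 3. C1RA was called without treated replicate 3 (0.91, adjusted p = 0.0136).

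Whether the members belong to the sorted cells or to the tissue around them was asked by setting bulk tumors against sorted cells of the same label. No member of the 7 tested was called by limma in sh-NC (1 at an unadjusted p under 0.05), where 16.9% of 11418 genes were, and none of the 8 tested in sh-B7-H3 (1) (0 unadjusted), where 38.2% of 11677 were. In sh-NC the log2 difference, bulk minus sorted, was -0.64 for C3 (95% confidence interval -1.23 to -0.04, adjusted p = 0.126), with all 3 bulk libraries lower, 0.18 for CFB (-0.17 to 0.54) and -0.05 for CLU (-0.59 to 0.50). In sh-B7-H3 (1) it was -0.68 for CFB (-1.60 to 0.24), 0.48 for CLU (-0.12 to 1.08) and -0.07 for SERPING1 (-0.97 to 0.84). CLU in that comparison was called only without bulk replicate 2 (adjusted p = 0.0109), and CFB and C1RA only with FPKM as deposited, where the median gene shifts by -0.26 on the log2 scale. The size of the sh-B7-H3 (1) effect itself differed between sorted cells and bulk for none of the 8 members tested by limma (1 at an unadjusted p under 0.05), where 0.464% of 12062 genes were called. The CFB effect was 0.87 larger in sorted cells (95% confidence interval -0.18 to 1.91, adjusted p = 0.399). CD55, the member with the unadjusted p under 0.05, passed the filter here only through treated libraries. Its fitted value of -0.68 (adjusted p = 0.293) is therefore given as a description.

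Other complement genes differed between bulk tumors and sorted cells. In sh-NC, bulk tumors held C1QA, C1QB and C1QC, the recognition chains of the classical route that macrophages make, at 123 to 285 scaled FPKM against 0.492 to 3.28 in sorted cells, a log2 difference of 6.33 (adjusted p = 5.31e-06), 6.01 and 6.11. The anaphylatoxin receptors C5AR1 (3.68) and C3AR1 (3.08), properdin, CFP (3.45), and the integrin ITGAM (3.25) were higher too. Each of these was below 1 scaled FPKM in every sorted sh-NC library and passed the filter only through bulk libraries. In all, 12 of the 29 complement genes tested in sh-NC were higher, none of them a member, and none was lower. Over all genes tested there, 10.4% were higher and 6.48% lower. In sh-B7-H3 (1), 14 of 33 were higher and 3 were lower, again no member, where 21.1% of all genes tested were higher and 17.1% lower. The lower genes, named after their values were seen, were C7 (-1.27), CR1L (-0.91) and C1QBP (-0.52). C7 was at 0 to 0.188 in bulk sh-B7-H3 (1) and passed the filter only through the sorted libraries.

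The list of 64 complement genes includes the members. With both shRNAs in sorted cells it held 13 genes higher (CD55 among them) and none lower among 27 tested. The counts were 11 and 0 of 24 with sh-B7-H3 (2), and 4 and 3 of 24 with sh-B7-H3 (1). Over all genes tested, in the same order, 12.6%, 11.7% and 9.03% were higher and 7.92%, 7.44% and 4.38% lower. Without the members, 6 of 19, 6 of 17 and 2 of 17 were higher, and 0, 0 and 3 lower. Beside the members these included the C1s proteases C1S1 (1.25, adjusted p = 0.02) and C1S2 (0.94), C1RB (0.90), the terminal pathway component C7 (0.98), and the membrane inhibitor SUSD4 (0.82). C7 and SUSD4 were below 1 scaled FPKM in every sorted sh-NC library, and C1S2 exceeded 1 there only in replicate 3 (1.33). C1S2, C7 and SUSD4 thus passed the filter only through treated libraries. Their values are descriptions, although the counts above include them where called. With sh-B7-H3 (1) alone, MASP1 (-1.67, adjusted p = 0.000102), CPN1, a subunit of the anaphylatoxin-inactivating carboxypeptidase (-1.48, adjusted p = 0.000247), and C1RL (-0.45, adjusted p = 0.036) were lower. MASP1 passed the filter there only through the sh-NC libraries. CPN1 stood at 21.6, 21.7 and 26.5 in sorted sh-NC, at 7.12 to 8.19 with sh-B7-H3 (1), and at 6.88, 24.4 and 21.9 with sh-B7-H3 (2), where the low value is again replicate 1. In the bulk tumors 7 of the 31 tested were higher and 1, CPN1 (-1.34, adjusted p = 0.00631), was lower. Over all genes tested there, 12.8% were higher and 8.52% lower. The 7 include SUSD4 and THBD, membrane regulators that were below 1 scaled FPKM in every bulk sh-NC library. Both passed the filter only through treated tumors, so their part in the count is a description.

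**Figure D4:**
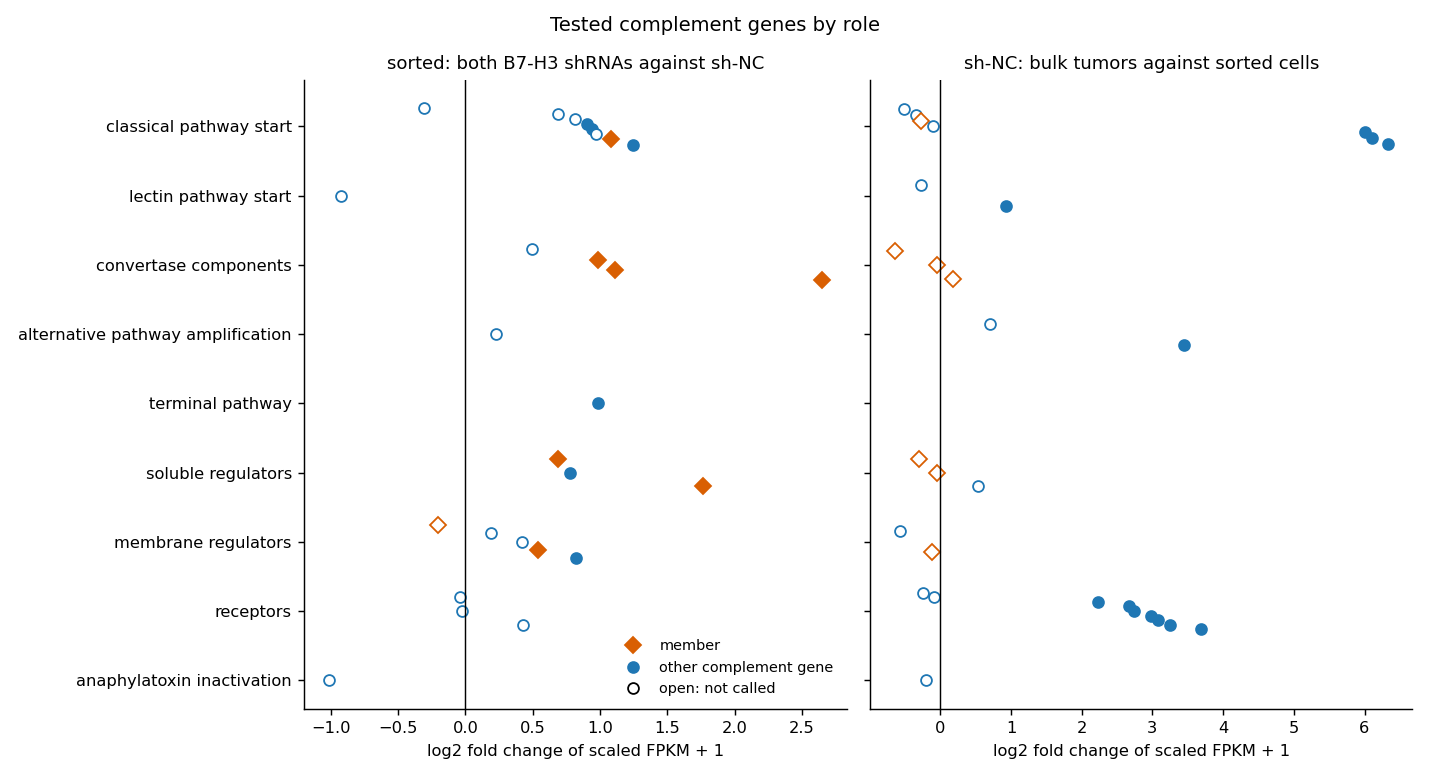
Log2 fold change of each tested complement gene by role in sorted cells with both B7-H3 shRNAs against sh-NC (left) and in sh-NC bulk tumors against sorted cells (right), with members as diamonds, other genes as circles, and filled symbols for adjusted p under 0.05. On the left every member tested but CD59A lies right of 0, and on the right the members are open, at -0.64 to 0.18, where C1QA, C1QB and C1QC lie at 6.01 to 6.33.

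The genes most like each member over the 9 sorted libraries were found by Pearson's r of log2 values, as a description over libraries that share their group differences. CFB ran closest with MPZL3, SEMA3C and CLIC5 (r 0.995 to 0.998), C3 with PKHD1, CLU and HSPH1 (0.963 to 0.966), and C1RA with ABHD17C, C1RB and PPM1J (0.973 to 0.986). SERPING1 ran closest with PCED1B, MAP3K14 and SFRP4 (0.971 to 0.989), C4B with GPC3, AMZ2 and ACE, and CLU with genes that included MICALL2 and D17WSU92E. CD59A ran closest with SLC25A17, COX7A2 and RPS27L, and CD55 with MAPKAPK3, RAD51AP1 and NEMP2. Between members r was 0.964 for C3 with CLU, 0.965 for C1RA with SERPING1, 0.948 for C1RA with C4B, and -0.726 for C3 with CD59A, all over n = 9. C2 was at r 0.841 with CFB and 0.883 with CD55.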

How the data were processed

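RNA from bulk tumors and sorted tumor cells was sequenced, and the authors deposited a table of FPKM, although the table is named for counts. The labels name mm10 as the build, and the aligner and annotation are not given in the sources used here. A second deposited table, which holds a subset of these genes on a log2 scale, was not used. Of 24917 entries, 26 with date-like symbols were left out. FPKM were divided by median-ratio factors (0.65 to 1.18) over 9872 genes with at least 1 FPKM in all 15 libraries, since MIR6236 held 6.01% to 79.7% of the summed FPKM. Genes with at least 1 scaled FPKM in 3 libraries of a comparison were tested on log2(scaled FPKM + 1) with limma 3.58.1 (R 4.3.3, mean-variance trend) and Benjamini-Hochberg adjustment at 0.05, and fold changes of low genes are understated on that scale. Fits were tested on simulated data. Positions came from GENCODE and promoters from RefSeq. Replicate numbers paired the samples only between the 2 sorted shRNA groups (r 0.316 to 0.357 for each number), not in the other comparisons, so no block was used in the main fits. The members and lists were chosen with earlier results of these data known. The text names every member, at most 8 other called complement genes a comparison, and the 3 most alike genes, except that some results are not reported here. Alternatives covered scaling, pseudocount, filter, covariates, blocks and each library left out. The FPKM precision is known only through the implied depth.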

Additional observations from a re-analysis of the deposited data

How the results depend on the processing

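How many members were called depended on the setting, and the cause was not tested. For sorted sh-B7-H3 (1) against sh-NC the count was 2, 5 with FPKM as deposited, 1 with no filter on low values, 1 with leukocyte score as a covariate, 1 with absolute log2 fold change above 1 and 1 with fibroblast score as a covariate, and 1 to 6 leaving out 1 library. Log2 fold changes that turned sign were CD59A 0.011 with FPKM as deposited, CD59A 0.025 with leukocyte score as a covariate and CD59A -0.37 to 0.056 leaving out 1 library. For sorted sh-B7-H3 (2) against sh-NC the count was 5, 3 with replicate block, 1 with fibroblast score as a covariate and 3 with sorted sh-B7-H3 (2) replicates 2 and 3 averaged, and 3 to 6 leaving out 1 library. For sorted both shRNAs against sh-NC the count was 7, 3 with no filter on low values, 4 with replicate block, 4 with absolute log2 fold change above 1 and 1 with fibroblast score as a covariate, and 2 to 7 leaving out 1 library. The main count of 7 includes CD55, whose call is not used, and is 6 without it. The sign changed there for CD59A -0.40 to 0.028 leaving out 1 library. For sorted sh-B7-H3 (1) against sh-B7-H3 (2) the count was 0, 1 with quantile normalization, 1 with at least 1 scaled FPKM in every library and 4 with leukocyte score as a covariate, and 0 to 4 leaving out 1 library. Signs changed for CFB -0.026 with quantile normalization, CD55 0.0077 with fibroblast score as a covariate, CFB -0.27 to 0.22 leaving out 1 library and CD59A -0.047 to 0.17 leaving out 1 library. For bulk sh-B7-H3 (1) against sh-NC the count was 4, 2 with quantile normalization, 2 with replicate block and 0 with fibroblast score as a covariate, and 1 to 4 leaving out 1 library. Here the sign changed for C4B -1.47 with fibroblast score as a covariate, C1RA -0.56 with fibroblast score as a covariate and SERPING1 -0.40 with fibroblast score as a covariate. For sh-NC bulk against sorted the count was 0, 1 with no filter on low values, and 0 leaving out 1 library. Changes of sign were CD59A 0.064 with leukocyte score as a covariate, CLU 0.74 with leukocyte score as a covariate, CLU 0.17 with fibroblast score as a covariate, C4B -0.36 to 0.16 leaving out 1 library, CD59A -0.32 to 0.11 leaving out 1 library and CLU -0.15 to 0.034 leaving out 1 library. For sh-B7-H3 (1) bulk against sorted the count was 0, 2 with FPKM as deposited, and 0 to 1 leaving out 1 library. The sign differed for C3 0.068 with quantile normalization, C3 0.12 with leukocyte score as a covariate, SERPING1 0.021 with quantile normalization, CD55 -0.14 with quantile normalization, CD55 -1.93 with leukocyte score as a covariate, CD55 -0.86 with fibroblast score as a covariate, C4B -0.84 to 0.39 leaving out 1 library, SERPING1 -0.32 to 0.40 leaving out 1 library and CD59A -0.15 to 0.059 leaving out 1 library. For sh-B7-H3 (1) effect, sorted minus bulk the count was 0, and 0 leaving out 1 library. Sign changes were C4B -0.041 with leukocyte score as a covariate, SERPING1 1.13 with fibroblast score as a covariate, CD59A 0.069 with FPKM as deposited, C4B -0.43 to 0.79 leaving out 1 library, C1RA -0.063 to 0.43 leaving out 1 library, SERPING1 -0.69 to 0.025 leaving out 1 library and CD59A -0.28 to 0.15 leaving out 1 library. Over all genes the calls ran from 710 to 2146 for sorted sh-B7-H3 (1) against sh-NC, 138 to 3614 for sorted sh-B7-H3 (2) against sh-NC, 748 to 3197 for sorted both shRNAs against sh-NC, 0 to 1864 for sorted sh-B7-H3 (1) against sh-B7-H3 (2), 0 to 4617 for bulk sh-B7-H3 (1) against sh-NC, 0 to 4436 for sh-NC bulk against sorted, 11 to 4562 for sh-B7-H3 (1) bulk against sorted and 12 to 128 for sh-B7-H3 (1) effect, sorted minus bulk. With FPKM as deposited the median gene shifted by 0.172 to 0.203 in the sorted comparisons with sh-NC, -0.124 for sh-NC bulk against sorted and -0.261 for sh-B7-H3 (1). The replicate block values stand above, and outside the 2 sorted shRNA groups the numbers did not pair the samples (r -0.538 to 0.412). The fibroblast score and the averaged replicates were chosen after seeing the data. With 3 libraries a group, and fold changes of C2 and CD55 near the pseudocount, small differences were not detectable.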
